A study of Mus musculus with 16 samples.

Results

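Transforming growth factor-beta (TGF-beta) genes were examined in the spinal cord of transgenic mice carrying human profilin 1. The genes were 9 symbols named for the pathway: the ligands Tgfb1, Tgfb2 and Tgfb3, the latency gene Ltbp1, the receptors Tgfbr1 and Tgfbr2, the SMAD genes Smad3 and Smad7, and the target Tgfbi. They were found by symbol, and all 9 were present among the 18167 genes of the table. TGF-beta is secreted in a latent form, held by its own propeptide and by latent TGF-beta binding proteins, and must be released before it can act. Active ligand binds the type II receptor, which activates the type I receptor, and SMAD3 then enters the nucleus to regulate transcription while SMAD7 limits the signal. In the central nervous system the pathway is known for its part in the maintenance of microglia and in astrocyte scarring.

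RNA was taken from whole spinal cords of 16 mice, labelled male. Mutant mice carried human PFN1 with the G118V substitution (line 838) and wild-type controls carried human PFN1 without it (line 850), each on C57BL/6N. Every animal therefore had a human transgene, placed under the mouse Prnp promoter, which is active in many cell types, and each genotype was a single transgenic line. Wild-type young (WY, n = 3) and mutant young (MY, n = 3) mice were 50 days old, before symptoms. Wild-type old (WO, n = 5) mice were 190 days old, or 294 days in WO4 and WO5. Mutant old (MO, n = 5) mice had reached the end stage, when a mouse can no longer right itself, at 198, 190, 245, 224 and 175 days in MO1 to MO5. Libraries were made in 2 batches, and batch 2 held WO4, WO5, MO4 and MO5 only. Values are log2(1 + FPKM), where FPKM is the fragment number scaled by transcript length and by library total, so levels can be set side by side between genes. The study lists more fragments for most libraries of batch 2 than for those of batch 1. These totals were not used here, and the table held no counts, so the number of reads behind each gene is unknown.

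The library of MO5 stood apart in its sex-linked genes. Xist, which is transcribed from the inactive X chromosome of females, was 3.21 in MO5 and between -0.36 and 0.37 in the other 15 mice. The Y-linked gene Ddx3y was 1.95 in MO5 and at least 4.06 in the others. The members' calls, and most counts of list genes called in WO vs. MO and MY vs. MO, are therefore given with and without MO5. Other values include it unless stated. Genes that mark spinal cord were present in every group, with lowest group means of 10.22 for the neuronal gene Snap25 and 3.28 for the motor neuron gene Chat. The myelin gene Mbp was 5.36 in WO4 and at least 12.16 in the other 15 mice, so WO4 stood apart in this gene, while the summed FPKM of the other 5 oligodendrocyte markers was 4981 in WO4 and 3527 to 4607 in the other WO mice.

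In end-stage mutant mice Tgfb1 and both receptor genes stood at about double the FPKM + 1 of either comparison group, while the other 6 members moved less. Genes were called at a false discovery rate (FDR) of at most 0.05 over all genes and a fold change of at least 1.5 in the limma fit. In WO vs. MO, 3 of the 9 members were called, all higher in MO, against 4.6% of all genes. In MY vs. MO the same 3 genes were called, against 4.9% of all genes. At an FDR of at most 0.05 alone, 6 of 9 members passed in each comparison, all higher in MO, against 27.9% of all genes in WO vs. MO and 25.6% in MY vs. MO. For 6 members the lowest MO mouse was above the highest WO mouse, which held for 11.3% of all genes. Against MY, 6 members had this separation, with 15.7% of all genes. Median log2 fold changes of the 9 members were 0.38 in WO vs. MO and 0.31 in MY vs. MO, and those over all genes were 0.00035 and 0.0047. Both comparisons use the same MO mice. The members were chosen with earlier results of these data known, so the shares beside them are a description only. Without MO5, 3 members were again called in each, and 6 and 5 passed the FDR in WO vs. MO and MY vs. MO.

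**Figure D1:**
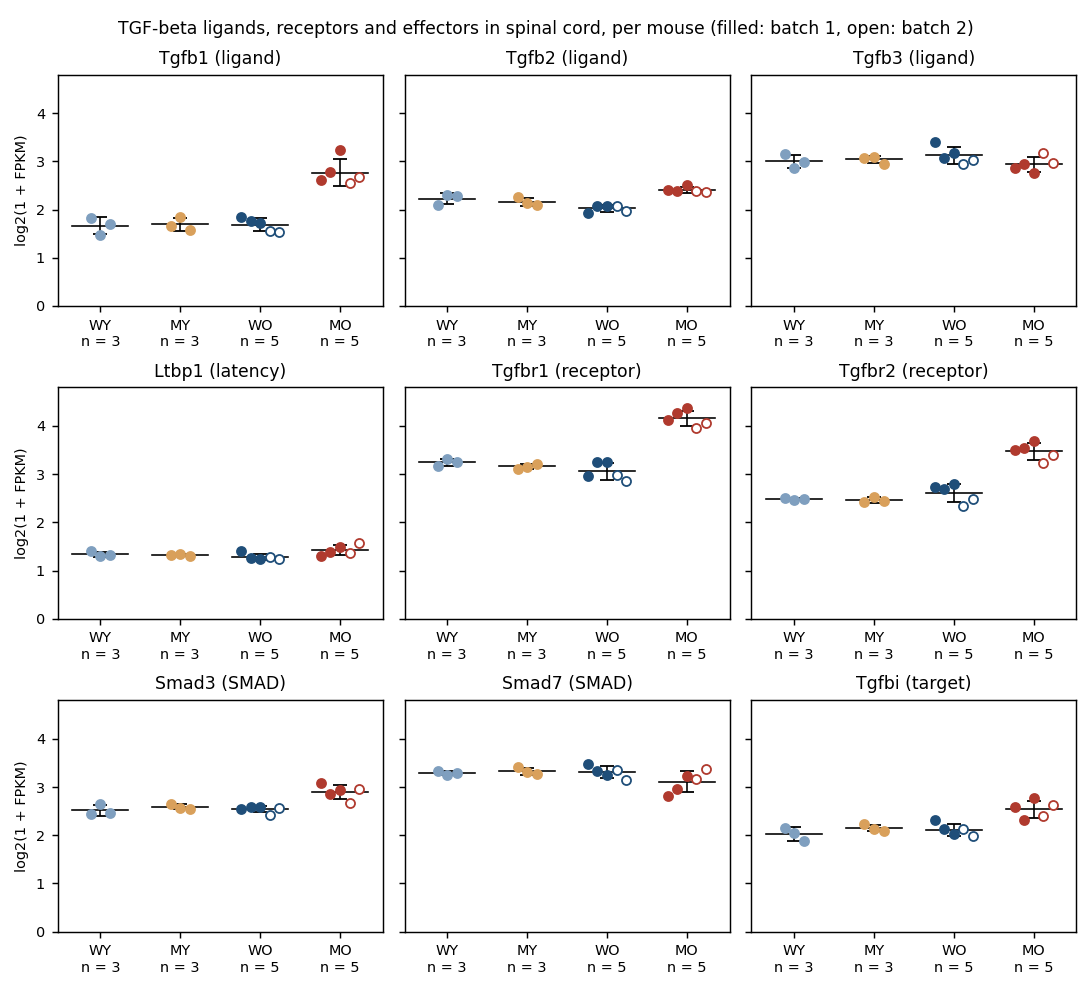
Level of each member in log2(1 + FPKM) for every mouse of the 4 groups, with filled points for batch 1, open points for batch 2, horizontal lines for group means and bars for the SD. Tgfb1, Tgfbr1 and Tgfbr2 lay higher in the 5 MO mice than in all 11 other mice, whereas Tgfb3, Ltbp1 and Smad7 overlapped between MO and the other groups.

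Tgfb1 encodes the ligand most often linked to microglia and lies on chromosome 7 (25687002 to 25705077, GRCm38.p6). Its levels in MO1 to MO5 were 2.60, 2.77, 3.24, 2.55 and 2.67, and those in WO1 to WO5 were 1.85, 1.76, 1.73, 1.56 and 1.54. The young mice held 1.82, 1.47 and 1.69 in WY and 1.66, 1.84 and 1.58 in MY. MO3, the oldest MO mouse, was highest, MO4 was lowest, and no MO value overlapped another group. The MO mean of 2.77 ± 0.28 (SD, n = 5) compared with 1.69 ± 0.13 (n = 5) for WO. Young means were 1.66 ± 0.18 for WY and 1.69 ± 0.14 for MY (n = 3 each), so the 3 groups other than MO lay within each other's spread. In WO vs. MO the log2 fold change was 1.08 (SE 0.12, 95% confidence interval 0.81 to 1.35, limma FDR 0.00013), and in MY vs. MO it was 1.07 (SE 0.15, interval 0.73 to 1.42, FDR 0.0017). Because 1 was added to FPKM, such fold changes understate those of FPKM itself, most of all for genes of low level.

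Tgfb2, on chromosome 1 (186622787 to 186709697), encodes a ligand with roles in neurons and glia, and it had a smaller rise. Levels ranged from 2.37 to 2.51 among MO and from 1.94 to 2.08 among WO mice, and the young ranges were 2.10 to 2.25 (MY) and 2.09 to 2.30 (WY). All MO mice were thus above all others, with a narrow margin over the young. The log2 fold change was 0.38 (SE 0.04, limma FDR 0.00012) in WO vs. MO and 0.25 (SE 0.05, FDR 0.0093) in MY vs. MO, short of the fold change threshold in both. Tgfb3, on chromosome 12 (86056743 to 86079041), was the most abundant ligand gene in each group, with means of 2.94 ± 0.15 (SD) for MO, 3.12 ± 0.18 for WO, 3.04 ± 0.07 for MY and 3.00 ± 0.14 for WY. The 4 groups overlapped, and no change in Tgfb3 passed the test, with log2 fold changes of -0.18 (limma FDR 0.19) in WO vs. MO and -0.10 (FDR 0.47) in MY vs. MO. The WO to MO difference was -0.36 in batch 1 and 0.08 in batch 2. Tgfb1 was the lowest of the 3 ligand genes in WY, MY and WO, without overlap with Tgfb2. In MO the mean of Tgfb1 was between those of Tgfb3 and Tgfb2, and its range overlapped that of Tgfb3.

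Ltbp1, which encodes a matrix protein that tethers latent TGF-beta and lies on chromosome 17 (75005480 to 75392512), was the lowest of the 9 members in every group. Its mean was 1.43 for MO and 1.28 for WO, and 1.33 and 1.34 for MY and WY. MO values ran from 1.31 to 1.57 and overlapped those of the other groups. The log2 fold change was 0.14 in WO vs. MO (limma FDR 0.079) and 0.10 in MY vs. MO (FDR 0.28), so neither passed, and under quantile normalization the MY vs. MO value was -0.03.

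Both receptor genes were higher at the end stage. Tgfbr1, on chromosome 4 (47353222 to 47414926), encodes the type I receptor kinase that phosphorylates SMAD3. Its levels were 4.13, 4.27, 4.37, 3.96 and 4.06 in MO1 to MO5 and 2.96, 3.25, 3.24, 2.99 and 2.86 in WO1 to WO5. In the young mice they were 3.18, 3.32 and 3.25 in WY and 3.11, 3.16 and 3.21 in MY. The lowest MO mouse was above every other mouse. WO1, WO4 and WO5 were below all young mice, and WO2 and WO3 were within the young range. The log2 fold change was 1.10 (SE 0.10, interval 0.88 to 1.32, limma FDR 3.3e-05) in WO vs. MO. In MY vs. MO it was 1.00 (SE 0.09, interval 0.79 to 1.20, FDR 0.00031).

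Tgfbr2, on chromosome 9 (116087695 to 116175363), encodes the ligand-binding type II receptor. MO1 to MO5 had levels of 3.50, 3.55, 3.69, 3.24 and 3.39, and WO1 to WO5 had 2.72, 2.69, 2.79, 2.33 and 2.48. WY mice had 2.51, 2.46 and 2.49, and MY mice had 2.42, 2.53 and 2.44. As for Tgfb1 and Tgfbr1, MO3 was highest and MO4 lowest in MO, and MO did not overlap another group. Its log2 fold changes were 0.87 (SE 0.10, interval 0.64 to 1.10, limma FDR 0.00016) in WO vs. MO and 1.01 (SE 0.09, interval 0.80 to 1.22, FDR 0.00032) in MY vs. MO. In MO the receptor genes had the highest means of the 9 members, 4.16 for Tgfbr1 and 3.47 for Tgfbr2, with the range of Tgfbr2 overlapping that of Smad7. In WY, MY and WO the highest mean was that of Smad7.

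For these 3 genes the 2 batches gave similar changes. The WO to MO difference in batch 1 (3 mice a group) and batch 2 (2 mice a group) was 1.09 and 1.06 for Tgfb1, 1.11 and 1.09 for Tgfbr1, and 0.84 and 0.91 for Tgfbr2. Mice of batch 2 were nevertheless lower than those of batch 1 in the deposited values, by 0.23 in WO and 0.26 in MO for Tgfb1. For Tgfbr2 these gaps were 0.33 and 0.26. Without WO4 the WO vs. MO log2 fold changes were 1.05 for Tgfb1, 1.08 for Tgfbr1 and 0.80 for Tgfbr2. Without MO5 they were 1.10 for Tgfb1, 1.12 for Tgfbr1 and 0.89 for Tgfbr2, and those in MY vs. MO were 1.10, 1.02 and 1.03. With only the WO mice of 190 days, a choice made after seeing the data, they were 0.99, 1.01 and 0.74 in WO vs. MO.

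Smad3, on chromosome 9 (63646766 to 63757994), encodes the transcription factor that carries the receptor signal. Its MO levels, 3.08, 2.86, 2.94, 2.67 and 2.95 in MO1 to MO5, were above the highest WO value of 2.59, the highest MY value of 2.65 and the highest WY value of 2.65. MO4 was the lowest and lay close to the top of the young groups. For Smad3 the log2 fold change was 0.36 (SE 0.07, limma FDR 0.0035) in WO vs. MO and 0.31 (SE 0.08, FDR 0.030) in MY vs. MO, short of a fold change of 1.5. Smad7 encodes the inhibitory SMAD, itself a well known target of the pathway. It spanned 2.82 to 3.37 in MO and 3.15 to 3.48 in WO, with MO1 and MO2 below all other mice and MO3, MO4 and MO5 within their range. Log2 fold changes were -0.20 (limma FDR 0.18) in WO vs. MO and -0.22 (FDR 0.22) in MY vs. MO, and neither passed. Within batches the WO to MO difference of Smad7 was -0.35 in batch 1 and 0.02 in batch 2.

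Tgfbi, on chromosome 13 (56609586 to 56639359), encodes a secreted matrix protein named for its induction by TGF-beta. It was 2.58, 2.32, 2.77, 2.39 and 2.62 in MO1 to MO5, and the highest values elsewhere were 2.31 (WO), 2.23 (MY) and 2.16 (WY). The MO mice were above all others, although MO2 exceeded WO1 only narrowly. Tgfbi rose by 0.42 on the log2 scale (SE 0.09, limma FDR 0.0057) in WO vs. MO and by 0.38 (SE 0.10, FDR 0.023) in MY vs. MO. The FDR of the smaller changes depended on single mice. In MY vs. MO, the limma FDR of Smad3 was 0.059 to 0.108 without MY1, MY2, MY3, MO3 or MO5, and that of Tgfbi was 0.056 to 0.091 without MY1, MY2 or MY3. Without MY3 the FDR of Tgfb2 was 0.0502, and 3 members in place of 6 passed. With fewer mice in each batch, the WO vs. MO change of Tgfbi was 0.40 (limma FDR 0.090) in batch 1 and 0.45 (FDR 0.065) in batch 2. That of Smad3 was 0.38 (FDR 0.016) and 0.32 (FDR 0.15), so the changes themselves were similar in both batches.

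**Figure D2:**
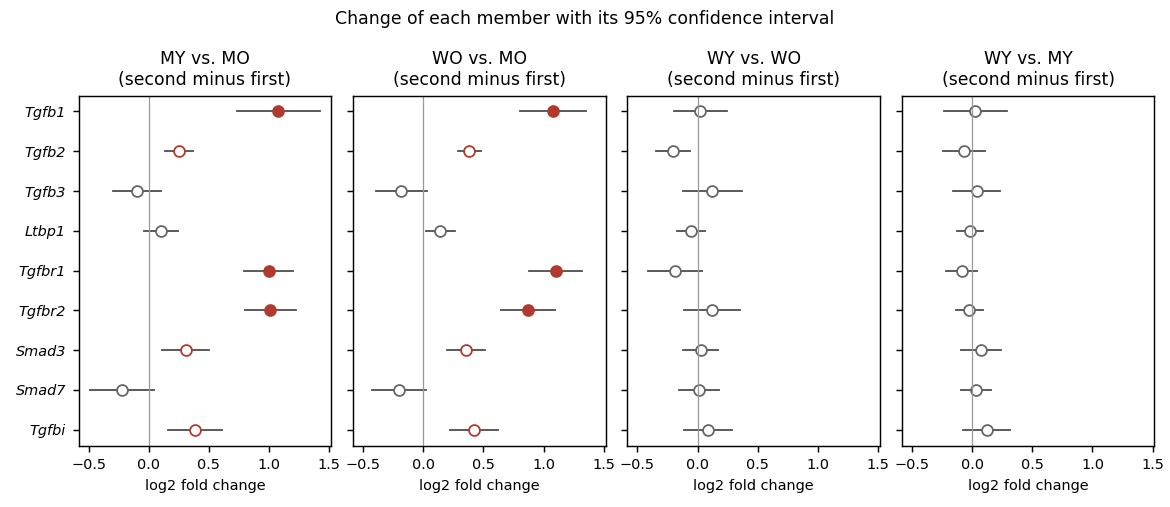
Log2 fold change (horizontal axis, second group minus first) of the 9 members in 4 comparisons, with bars for the 95% confidence interval. Filled red points passed an FDR of 0.05 and a fold change of 1.5, open red points passed the FDR only, and grey points passed neither. Red points are confined to MY vs. MO and WO vs. MO, with 3 filled and 3 open in each.

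Ageing of wild-type mice and genotype before symptoms were examined in WY vs. WO and WY vs. MY. No member was called by limma in WY vs. WO, where 0.253% of all genes were called and 1.12% passed the FDR alone. Tgfb2 was the only member with an unadjusted p below 0.05, which 13.5% of all genes had, at a log2 fold change of -0.20 (limma FDR 0.19). All 5 WO mice were below the 3 WY mice, and the exact permutation test, two-sided, gave p = 0.018, the smallest that 3 against 5 mice allow. The log2 fold changes of the other 8 members ran from -0.19 for Tgfbr1 to 0.12 for Tgfb3. The count over all genes, 46, was 7 without WY3, 23 without WY1, 30 without WY2, 26 without WO2 and 27 without WO3.

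In WY vs. MY, no member was called and none had an unadjusted limma p below 0.05, against 7.16% of all genes. Their log2 fold changes lay between -0.09 for Tgfbr1 and 0.12 for Tgfbi. The widest 95% confidence interval, that of Tgfb1, was -0.24 to 0.29, so changes of the size seen at the end stage were outside the intervals of Tgfb1, Tgfbr1 and Tgfbr2. Exact permutation tests of 3 against 3 mice cannot give a p below 0.10. Of all genes, 0.0055% were called, which is 1 gene, with and without the fold change threshold. That gene, named here after its value was seen, was Prnp at a log2 fold change of 1.94 (limma FDR 7.3e-05). Both transgenes were built on Prnp sequence, so reads of a transgene and of the mouse's own Prnp cannot be told apart in these values. The study's qRT-PCR found no significant change of Prnp in this comparison, and the study proposes that transgene reads could have been aligned to Prnp. The count was 2 to 5 when MY1, MY2, WY1, WY2 or WY3 was left out.

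Whether the change with age differed between genotypes was tested by the contrast of MO minus MY with WO minus WY. Tgfb1 (log2 difference 1.05, SE 0.19, limma FDR 0.0018), Tgfbr1 (1.19, SE 0.14, FDR 7.9e-05) and Tgfbr2 (0.89, SE 0.14, FDR 0.00073) were called. Of all genes, 5.61% were called and 17.7% passed the FDR alone. Tgfb2 passed the FDR at 0.45 (SE 0.08, FDR 0.0015), the sum of a rise from MY to MO and a fall of 0.20 from WY to WO that by itself did not pass. Smad3 at 0.28 (FDR 0.090), Tgfbi at 0.30 (FDR 0.16), Ltbp1 at 0.16 (FDR 0.19), Tgfb3 at -0.22 (FDR 0.34) and Smad7 at -0.23 (FDR 0.30) did not pass. Without MO5, 3 members were called and 4 passed the FDR. Over all genes the interaction had 845 higher and 175 lower calls, and 715 and 277 after quantile normalization.

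The wider TGF-beta superfamily was described by 96 further genes in 7 lists, all of them present in the table. In WO vs. MO, 13 were called higher and 2 lower in MO, and in MY vs. MO 11 were called higher and 2 lower, against 4.6% and 4.9% of all genes. At the FDR alone, 28 were higher and 11 lower in WO vs. MO (27.9% of all genes), and 26 and 14 in MY vs. MO (25.6% of all genes). The median log2 fold change of the 96 genes was 0.05 in WO vs. MO and 0.04 in MY vs. MO. Without MO5, 14 and 13 of the 96 were called. In WY vs. WO 1 was called, Bmp4, at a log2 fold change of -0.62 (limma FDR 0.046), and 20 had an unadjusted p below 0.05, as did 13.5% of all genes. In WY vs. MY none was called by limma and 12 had an unadjusted p below 0.05, against 7.16% of all genes. The interaction called 13 with a more positive change in mutants and 1 with a more negative one, against 5.61% of all genes.

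The list of known target genes moved most of the lists, though it did not hold every target. Of its 18 genes, 8 were called higher in WO vs. MO and 6 in MY vs. MO, against 4.6% and 4.9% of all genes. None was called lower. The members Tgfbi and Smad7 are also targets and were not in this list. In both comparisons Tgfbi passed the FDR only, and Smad7, with a lower mean in MO, did not pass. The list's median log2 fold changes were 0.42 and 0.34. Without MO5, 7 and 6 were called, and the medians were 0.38 and 0.35. Timp1, an inhibitor of matrix metalloproteinases, averaged 4.36 ± 0.37 (SD) in MO and 0.69 ± 0.50 in WO, and the young groups had 1.18 ± 0.09 (MY) and 1.08 ± 0.18 (WY). Its log2 fold change was 3.67 (SE 0.24, limma FDR 1.5e-05) in WO vs. MO and 3.18 (SE 0.19, FDR 0.00020) in MY vs. MO. The actin-binding protein gene Tagln rose from 2.64 in WO to 4.38 in MO, a log2 fold change of 1.75 (SE 0.16, FDR 3.6e-05). Postn, which encodes the matrix protein periostin, rose from 0.52 in WO to 2.09 in MO. The MO mice did not overlap WO or MY for Timp1, Tagln or Postn. Fn1, the fibronectin gene, was called at 1.15 (SE 0.13, FDR 0.00074) in MY vs. MO. Its WO vs. MO value was 0.76 (SE 0.22, FDR 0.028), with overlapping groups. That WO vs. MO call of Fn1 was lost without MO2, MO3, MO5, WO4 or WO5, where its log2 fold change was 0.61 to 0.74, and in batch 1 alone, where it was 0.39 (FDR 0.14). It was also lost with only the WO mice of 190 days (0.40, FDR 0.097).

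Among 20 genes of latency and activation, 3 were called higher and 2 lower in WO vs. MO, and 3 higher and 1 lower in MY vs. MO, against 4.6% and 4.9% of all genes and with list medians of 0.09 and 0.07. These counts of calls were the same without MO5. Itgb5 encodes a subunit of an integrin that can release TGF-beta, and it rose from 4.62 ± 0.24 (SD) in WO to 5.70 ± 0.20 in MO, a log2 fold change of 1.08 (SE 0.12, limma FDR 0.00014). Nrros encodes a protein that anchors latent TGF-beta 1 on microglia and macrophages. Its mean was 2.11 for MO and 1.42 for WO, and 1.10 and 1.39 for MY and WY. The log2 fold change of Nrros was 0.70 (SE 0.15, FDR 0.0069) in WO vs. MO and 1.01 (SE 0.12, FDR 0.00080) in MY vs. MO. The WO vs. MO call of Nrros was lost in batch 1 alone (0.50, FDR 0.049) and with only the WO mice of 190 days (0.48, FDR 0.033), since the change was below the fold change threshold. The membrane metalloproteinase gene Mmp14 was called at 0.63 in WO vs. MO and 0.71 in MY vs. MO. Mmp14 lost its WO vs. MO call without MO2 (0.48) or WO1 (0.57) and in batch 2 alone (0.31, FDR 0.098). Its MY vs. MO call was lost without MO2 (0.55), MY1 (0.70), MY2 (0.70) or MY3 (0.71). Mmp9, which encodes a gelatinase, fell from 2.32 ± 0.10 in WO to 1.62 ± 0.12 in MO, with log2 fold changes of -0.70 (FDR 5.1e-05) in WO vs. MO and -0.71 (FDR 0.00057) in MY vs. MO. Ltbp4, a relative of Ltbp1, was lower in MO than in WO at -0.67 (SE 0.11, FDR 0.0011), but at -0.08 (FDR 0.69) in MY vs. MO it did not pass.

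Among 16 intracellular regulators, only the SMAD corepressor gene Tgif1 was called, a share near the 4.6% and 4.9% of all genes in WO vs. MO and MY vs. MO. Tgif1 rose from 1.51 ± 0.15 (SD) in WO to 2.60 ± 0.22 in MO, with log2 fold changes of 1.09 (SE 0.11, limma FDR 5.3e-05) in WO vs. MO and 1.11 (SE 0.11, FDR 0.00047) in MY vs. MO. The other regulators included 3 that were higher and 3 that were lower at the FDR alone in WO vs. MO, where 27.9% of all genes passed it. Among 14 activin, GDF and BMP ligands, Gdf15, a stress-responsive cytokine gene, rose from 0.04 ± 0.14 in WO to 1.04 ± 0.12 in MO, a log2 fold change of 1.00 (SE 0.08, FDR 2.2e-05). Gdf10 was lower in MO in MY vs. MO, at -0.67 (SE 0.13, FDR 0.0083). In WO vs. MO the Gdf10 value of -0.44 (FDR 0.020) passed the FDR only, and with a pseudocount of 0.1 it was -0.66 and called. None of the 11 co-receptors and other receptors, the 6 other SMADs or the 11 extracellular ligand binders was called by limma in either comparison. Without MO5 the counts called were again 1 and 1 of the regulators, 1 and 2 of the 14 ligands and 0 of the other lists in WO vs. MO and MY vs. MO. At an unadjusted limma p below 0.05 the co-receptors and other receptors, the other SMADs and the ligand binders had 5, 1 and 6 genes in WO vs. MO. In MY vs. MO these 3 lists had 7, 2 and 5, and over all genes 38.5% and 36.7% were below 0.05 in the 2 comparisons.

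**Figure D3:**
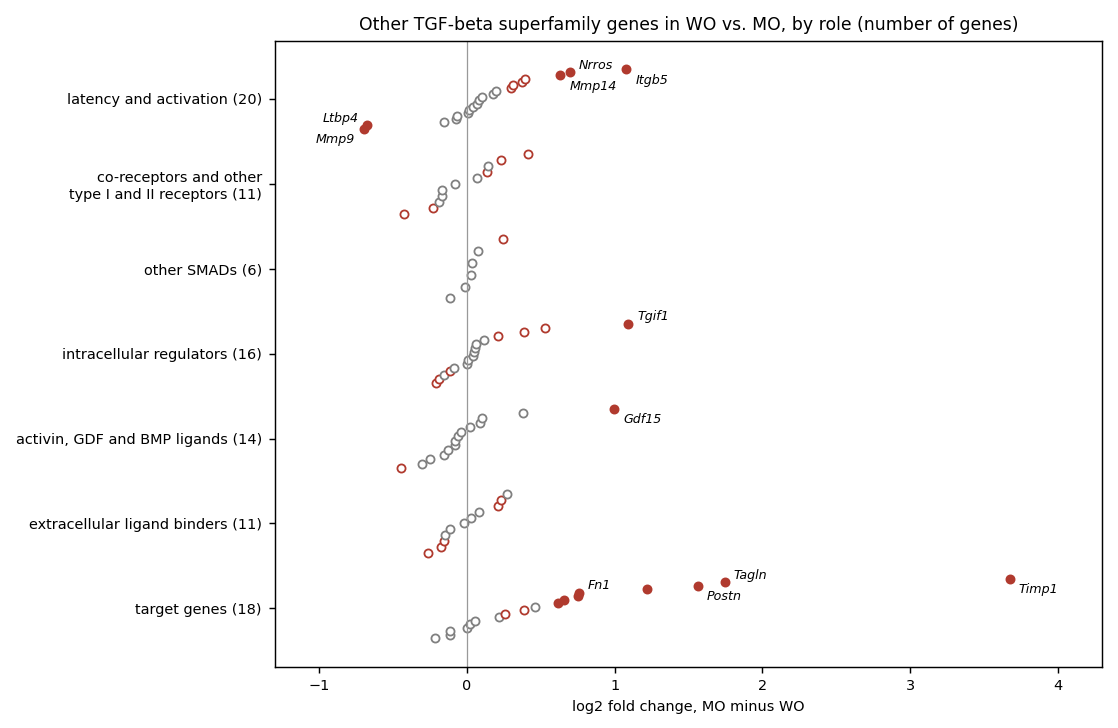
Log2 fold change in WO vs. MO (horizontal axis, MO minus WO) of 96 further superfamily genes grouped by role, with the number of genes in brackets. Filled red points passed an FDR of 0.05 and a fold change of 1.5, and open red points passed the FDR only. Timp1 lies farthest to the right, at 3.67, and 8 of the 18 target genes are filled.

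Markers of several cell types moved with the members in these bulk samples, in which a change in the number of cells of a type and a change in RNA per cell cannot be told apart. Of 14 microglial markers, 10 were called higher in WO vs. MO and 11 in MY vs. MO, against 4.6% and 4.9% of all genes. None of these markers was called lower. Their summed FPKM was 984, 1268, 1424, 874 and 959 in MO1 to MO5, and 308, 311, 337, 236 and 226 in WO1 to WO5. In the young mice the sum was 292, 267 and 287 in WY and 273, 296 and 284 in MY. MO3 was highest and MO4 lowest of the MO mice, the same mice as for Tgfb1, Tgfbr1 and Tgfbr2. The lowest WO mice were WO4 and WO5, the 294-day mice of batch 2. This was also so for Tgfb1 and Tgfbr2, but for Tgfbr1 WO1 (2.96) was below WO4 (2.99). C1qb was the most abundant of these genes, and without it the sum averaged 764 ± 161 (SD) in MO and 228 ± 34.4 in WO. No microglial marker was below an FPKM of 0.1 in any mouse. The markers P2ry12 (log2 fold change 0.10, limma FDR 0.62) and Sall1 (-0.01, FDR 0.96) did not pass in WO vs. MO, whereas Cx3cr1 (1.14, FDR 1.0e-04) and Aif1 (1.75, FDR 0.00030) were called. The part of microglial markers in the changes of the members was not tested.

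Over all genes, 4.6% were called in WO vs. MO and 4.9% in MY vs. MO, and 27.9% and 25.6% passed the FDR alone. The counts of the marker lists below stand beside these shares. Of 8 astrocyte markers, 4 were called higher in WO vs. MO and 2 in MY vs. MO. Their summed FPKM was 3194, 4085, 3703, 3307 and 3322 in MO1 to MO5 and 1882, 1880, 1981, 2079 and 1822 in WO1 to WO5. In WY it was 2555, 2365 and 2333, and in MY 2245, 2276 and 2191. Gfap was the most abundant, and without Gfap the sum was 1305 ± 76.3 (SD) in MO and 1204 ± 43.6 in WO. For the young mice it was 1321 ± 30.0 (MY) and 1362 ± 24.7 (WY). That sum includes S100b, which did not pass the test and had a mean FPKM of 573 for MO and 657 for WO, with 690 (MY) and 720 (WY) in the young. Aqp4, Aldh1l1 and Sox9, like Gfap, passed the FDR upward in both comparisons. Slc1a3 and Gja1 passed in WO vs. MO only, and Slc1a2 in neither. Their MY vs. MO values were 0.29 (limma FDR 0.10), 0.10 (FDR 0.54) and 0.02 (FDR 0.86). Without Gfap, the mean sum of MO was thus above that of WO but not above those of MY and WY. No astrocyte marker was below an FPKM of 0.1, and the part of astrocyte markers was not tested. Neuronal markers were lower in MO, with 4 of 5 at the FDR alone in each comparison and a summed FPKM, led by Snap25, of 1653 to 1869 for MO, 2166 to 2417 for WO and 2046 to 2138 for MY mice. Of 6 motor neuron markers, 1 was called lower in WO vs. MO (Chat, -0.67, limma FDR 3.1e-05) and 4 passed the FDR, as did 4 in MY vs. MO. The motor neuron sum, led by Prph, averaged 102 ± 10.2 (SD) in MO, 129 ± 11.1 in WO and 122 ± 6.52 in MY. Of 5 endothelial markers, 4 were lower at the FDR alone in WO vs. MO and none in MY vs. MO. Of 6 oligodendrocyte markers, 1 was called lower in WO vs. MO and 3 in MY vs. MO, and of 3 precursor markers none and 1. Of 5 Schwann cell markers, Egr2 was called higher in both comparisons. None of the 4 mural, 5 meningeal fibroblast, 6 blood-derived and border macrophage, 4 lymphocyte, 4 red blood cell, 4 skeletal muscle or 5 sex-linked genes was called by limma in WO vs. MO or MY vs. MO. At the FDR alone, 1 mural marker was higher and 2 were lower in WO vs. MO, and 1 was higher and 1 lower in MY vs. MO. The lymphocyte gene Cd8a was higher (0.09, FDR 0.041) and the muscle gene Acta1 lower (-0.25, FDR 0.045) in WO vs. MO. Markers of blood-derived and border macrophages were low, with up to 3 of the 6 below an FPKM of 0.1 in a mouse. Their summed FPKM, led by F13a1, was 1.96, 2.06, 1.72, 1.62 and 1.47 in MO1 to MO5 and 0.915 to 1.25 in the other 11 mice, without overlap. Of these 6 markers, Mrc1 (0.22, limma FDR 0.0034) and Lyve1 (0.24, FDR 0.011) passed the FDR upward in WO vs. MO, as they did in MY vs. MO at 0.19 (FDR 0.014) and 0.24 (FDR 0.049). The other 4, Ccr2, Ly6c2, Cd163 and F13a1, did not pass, and 2 of 6 is near the share of all genes at the FDR (27.9% and 25.6%). The part of these markers in the changes of the members was not tested. Summed FPKM of the lymphocyte list was at most 0.335 in any mouse. Without MO5, 10 microglial markers were called higher in each comparison, and 4 astrocyte markers in WO vs. MO and 2 in MY vs. MO. Neuronal markers lower at the FDR were then 3 in each, and motor neuron markers 4 and 3. Oligodendrocyte markers called lower were 0 in WO vs. MO and 4 in MY vs. MO, and 1 endothelial and 1 mural marker were called lower in WO vs. MO. Without MO5, Cd8a and Acta1 did not pass, and 1 in place of 2 macrophage markers passed the FDR in MY vs. MO.

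The genes whose levels followed the called members most closely over the 16 mice were described by Pearson's r among 13529 other genes with a mean of at least 1. Cd37, Tmem106a and Lyz1 were closest to Tgfb1 (r = 0.987, 0.986 and 0.986). Nckap1l, A2m and Slc14a1 were closest to Tgfbr1 (r = 0.989, 0.989 and 0.988), and Ctss, Lyz2 and Itgb5 to Tgfbr2 (r = 0.992, 0.990 and 0.989). Without MO5 these r values were 0.984 to 0.993. The separate position of the MO mice shaped them. In the 11 mice outside MO, r was 0.719, 0.707 and 0.712 for the genes closest to Tgfb1, 0.884, 0.882 and 0.838 for those closest to Tgfbr1, and 0.923, 0.854 and 0.866 for those closest to Tgfbr2.

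Since Tgfb1, Tgfbr1 and Tgfbr2 rose together, the 250 bases before the start of each are shown from RefSeq (GRCm38.p6). RefSeq windows were matched for 7 of the 9 members, Tgfb3 and Smad7 being the others. Both strands were searched for CAGAC, a SMAD-binding element, TGANTCA, an AP-1 element, GAGGAA, the core bound by PU.1, and GGGCGG, a GC box bound by SP1. Capitals mark every match, and no matches overlapped. The window of Tgfb1 is chr7:25686752-25687001 (plus strand), that of the first of 2 starts of Tgfbr1 is chr4:47352972-47353221 (plus strand), and that of Tgfbr2 is chr9:116175364-116175613 (minus strand).
Tgfb1: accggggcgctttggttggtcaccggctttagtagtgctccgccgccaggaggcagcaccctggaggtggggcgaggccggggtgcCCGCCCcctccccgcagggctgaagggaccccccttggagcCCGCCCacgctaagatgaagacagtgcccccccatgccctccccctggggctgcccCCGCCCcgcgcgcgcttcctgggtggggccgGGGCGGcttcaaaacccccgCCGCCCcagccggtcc
Tgfbr1: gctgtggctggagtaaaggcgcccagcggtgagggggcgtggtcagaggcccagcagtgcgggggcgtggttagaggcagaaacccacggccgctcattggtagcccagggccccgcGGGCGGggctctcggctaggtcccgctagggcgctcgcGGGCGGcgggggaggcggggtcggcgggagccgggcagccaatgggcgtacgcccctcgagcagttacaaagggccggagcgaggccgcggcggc
Tgfbr2: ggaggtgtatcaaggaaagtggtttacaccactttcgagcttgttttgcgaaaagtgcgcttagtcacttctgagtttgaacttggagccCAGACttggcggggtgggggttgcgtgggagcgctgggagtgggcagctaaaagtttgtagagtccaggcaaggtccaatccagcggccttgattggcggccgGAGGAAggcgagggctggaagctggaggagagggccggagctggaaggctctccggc
The Tgfb1 window held 5 GC boxes and the first Tgfbr1 window 2, and neither held another of the motifs. The Tgfbr2 window held 1 CAGAC and 1 GAGGAA and no GC box. The window of the other Tgfbr1 start (chr4:47385966-47386215), not printed, also held 1 CAGAC and 1 GAGGAA and no GC box. None of the 4 held TGANTCA. Among 32851 promoter windows of this length, 42.2% held CAGAC, 6.75% TGANTCA, 23.3% GAGGAA and 32.7% GGGCGG. The G and C content was 75.2% for Tgfb1, 74.8% and 52.8% for the 2 windows of Tgfbr1 and 58.4% for Tgfbr2, against a median of 52.4% over all windows. These matches describe the letters only.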

How the data were processed

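Spinal cord RNA of 16 mice was read from 1 table of log2(1 + FPKM) values deposited by the authors, 1 library a mouse, with no column left unused. As the study's methods and the submitters' processing notes state, the authors used Trimmomatic for cleaning, TopHat for alignment (mm10) and Cufflinks for FPKM. They then added 1, took log2, removed genes at 0 in many mice and adjusted for the 2 batches with ComBat. Versions, annotation and ComBat covariates are not given in the sources used here. No mouse column repeated another. The adjustment left 915 values below 0 and none at exactly 0, and values near 0 are uncertain. A library shares 1 total, so large changes in some genes can shift others.

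The deposited log2 values were fitted with limma 3.58.1 in R 4.3.3 (lmFit and eBayes, two-sided) on the 2 groups compared, and on all 16 mice for the interaction, with Benjamini-Hochberg adjustment over all 18167 genes. A call needed both an FDR no higher than 0.05 and a change of 1.5 times or more. The code was tested on simulated data. Exact permutation tests over mice were run for each member. Each mouse was the unit. Groups came from the labels, and the ages and batches are those the study lists for each mouse. Also named, outside the rule that follows, were Bmp4, called in WY vs. WO, and Prnp. Named by rule were the 9 members, the genes called in WO vs. MO or MY vs. MO (at most 4 per list and comparison) of the 7 pathway lists, and the 3 genes with the highest Pearson r to each called member. A gene that this rule takes from the target list is not reported here. Lists of markers covered microglia, astrocytes, oligodendrocytes and their precursors, neurons, motor neurons, endothelium, mural cells, meningeal fibroblasts, blood-derived and border macrophages, lymphocytes, red blood cells, Schwann cells, skeletal muscle and sex. Of the 86 markers listed, 84 were found. The members and lists were chosen with earlier results of these data known.

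Alternatives were batch 1 only, batch 2 only, batch as a term, all groups in 1 fit, a mean of at least 1, a pseudocount of 0.1, quantile normalization, an intensity trend, a replicate block, each mouse left out and, for the members, the exact permutation test (unadjusted p) in place of limma. Another, the WO mice of 190 days only, was chosen after seeing the data. Gene positions and promoter windows came from RefSeq on GRCm38.p6, the assembly of mm10, matched by symbol.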

Additional observations from a re-analysis of the deposited data

Results flagged for a closer look

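Among the 18 sets of 5 mice examined (9 members in WO and in MO), 2 had a mouse far from the rest of its group, where chance gives about 1 in 20. For Tgfb2, MO3 had the highest MO level at 2.51, with the other 4 MO mice between 2.37 and 2.40. For Smad3, WO4 had the lowest WO level at 2.42, with the other 4 WO mice between 2.55 and 2.59.

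The change with age differed between genotypes, by the limma interaction test at the FDR, for 4 members, against 17.7% of all genes. Tgfb1, Tgfbr1 and Tgfbr2 were also called, against 5.61% of all genes, while Tgfb2 passed the FDR only. The value of Tgfb2 includes a fall from WY to WO (-0.20, limma FDR 0.19) that by itself did not pass. The difference, mutant change minus wild-type change, was 1.05 for Tgfb1, 0.45 for Tgfb2, 1.19 for Tgfbr1 and 0.89 for Tgfbr2 on the log2 scale.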

How the results depend on the processing

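Tgfb1, Tgfbr1 and Tgfbr2 were called in MY vs. MO under all 16 limma alternatives run and in WO vs. MO under all 20, those leaving out 1 mouse included. The exact permutation test gave each an unadjusted p of 0.018 in MY vs. MO and 0.0079 in WO vs. MO, the smallest it can give, which is not a call at the FDR. Their log2 fold changes ran from 0.94 for Tgfbr1 to 1.34 for Tgfb1 in MY vs. MO and from 0.74 for Tgfbr2 to 1.35 for Tgfb1 in WO vs. MO. With a pseudocount of 0.1 the genes called rose to 1483 in MY vs. MO (890 in the main test), 1529 in WO vs. MO (836) and 1548 in the interaction (1020), and the pathway genes called in MY vs. MO to 21 (13), since a smaller pseudocount enlarges changes of low genes. In WY vs. WO, 73 genes were called in batch 1 only, which here is the same fit as with the WO mice of 190 days only, and 80 with batch as a term (46 in the main test). In WY vs. MY, 4 were called with all groups in 1 fit, 2 at a mean of at least 1 and 2 with an intensity trend (1 in the main test). The cause of these differences was not tested.

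Signs turned for changes that never passed: Ltbp1 under quantile normalization (-0.030 for Ltbp1 MY vs. MO and 0.000749 for Ltbp1 WY vs. MY), and Tgfb3 (0.083) and Smad7 (0.024) in WO vs. MO in batch 2 only. Leaving out 1 mouse at a time gave 7 to 64 genes called in WY vs. WO, 1 to 5 in WY vs. MY, and 3 to 6 members at the FDR in MY vs. MO. It also gave ranges crossing 0 in WY vs. WO for Tgfb1 (-0.072 to 0.104), Smad3 (-0.011 to 0.092) and Smad7 (-0.029 to 0.055), and in WY vs. MY for Tgfb1 (-0.067 to 0.109), Tgfb3 (-0.030 to 0.108), Ltbp1 (-0.033 to 0.017) and Smad7 (-0.0067 to 0.063). Of 1265 values of single genes over the limma alternatives, 1232 kept their direction and side of the call, 17 lost a call, 1 gained one and 15 changed sign.

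Replicate numbers name different animals and no label pairs them. Correlations of deviations from the group means between same-numbered mice were -0.21 to 0.38 over 14 pairs, and every mouse matched its own number best only in MY vs. MO (6 of 6 mice; 1 of 10 in WO vs. MO, 4 of 6 in WY vs. WO and 0 of 6 in WY vs. MY), a hint from the data and not from the design. With a replicate block the genes called were 1108 in MY vs. MO, where MO4 and MO5 have no partner, 840 in WO vs. MO, 63 in WY vs. WO, 1 in WY vs. MY and 1008 in the interaction. The members called stayed at 3, 3, 0, 0 and 3, and those at the FDR in MY vs. MO were 4.

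Precision is limited by 3 to 5 mice a group. The 294-day WO mice were older than any MO mouse, batch 2 held no young mice, and without counts the depth behind low genes is unknown.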
